A study of Mus musculus with 60 samples.

Results

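A83-01 and DMH-1 were compared directly in D/KO tail tip fibroblasts, using every library of these treatments, which came to 6 of the 60 libraries of the series. D/KO cells are Ercc1 d/- cells, mutant in a subunit of a DNA repair endonuclease, and all those used here are labelled as female and 4 weeks of age. Each inhibitor was given at 1 µM for 3 days, and each treatment had 3 libraries. The 3 libraries of control D/KO cells of the same genotype, sex and age are given beside them. The estimate of spread behind the tests also drew on D/KO cells with Repsox or Vactosertib and on WT control cells of older mice. Culture was at 3% oxygen. Nothing says that replicates came from separate mice or cultures, so the p-values below measure the spread between samples, which may be technical. The study describes the control cells as non-treated, and no vehicle for them is given in the sources used here.

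TGFb and BMP ligands signal through related serine-threonine kinase receptors. TGFb and the activins act through the type I receptors ALK5 and ALK4 and the transcription factors Smad2 and Smad3, while BMPs act mostly through ALK2, ALK3 and ALK6 and Smad1, Smad5 and Smad9. A83-01 is an inhibitor of ALK5 that also acts on ALK4 and ALK7, and DMH-1 is an inhibitor of BMP type I receptors such as ALK2. In fibroblasts TGFb is best known for driving matrix synthesis and the contractile state, and BMP for driving the Id genes.

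The 6 libraries held between 18879637 and 30599138 counts assigned to genes. The A83-01 libraries were alike in depth, whereas DMH-1 replicate 3 was the shallowest and DMH-1 replicate 1 the deepest. Mitochondrial transcripts made up 1.1% to 1.29% of counts with A83-01, 0.392% to 0.768% with DMH-1 and 0.511% to 0.909% in control cells. DMH-1 replicate 2 stood apart from its group in interferon-stimulated genes, which were higher there than in any other library. The median and calls of the list of these genes are given with and without it. Ercc1 RNA was read in all libraries, at 13.8 to 18.6 CPM (counts scaled to the size of the library) with A83-01, 19.5 to 25 with DMH-1 and 21.4 to 22.1 in control cells, a readout that says little of the alleles.

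To find the genes that separated the treatments, all 15164 genes that passed the expression filter were tested with edgeR, and a gene was called at an adjusted p under 0.05. Differences are given as log2 of A83-01 over DMH-1 with the standard error. Of the genes tested, 1811 (11.9%) were higher and 2034 (13.4%) lower with A83-01, and 767 and 778 of these differed by at least 1 on the log2 scale. These shares are the background for each count of list members between the treatments. The median difference over all genes was -0.0047 after TMM scaling, which itself centres the differences near 0. The CPM ranges of the treatments did not overlap for 42.7% of all genes, with A83-01 above in 20.8% and below in 21.9%. The plot of differences against level shows called genes on both sides of 0 at every level.

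**Figure D1:**
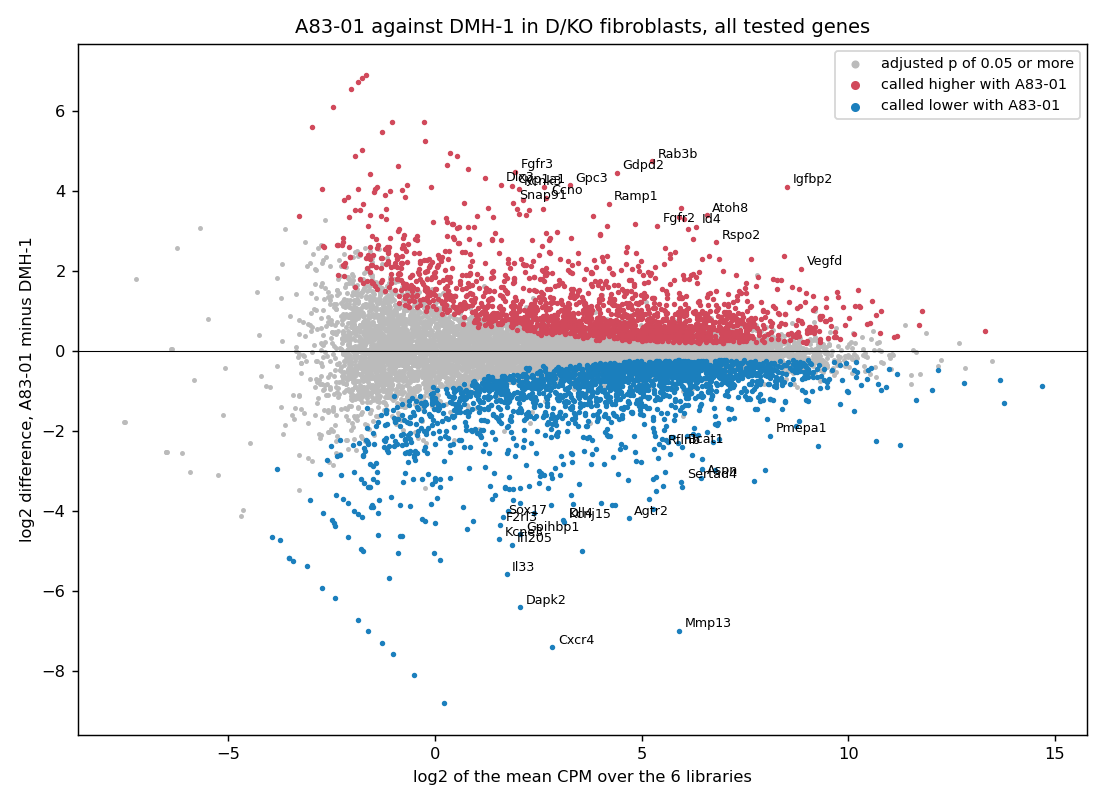
Each point is a gene, with log2 of its mean CPM over the 6 libraries on the x axis and its log2 difference, A83-01 minus DMH-1, on the y axis. The 1811 genes called higher and the 2034 called lower are coloured, and the labelled genes include Rab3b at +4.75 and Cxcr4 at -7.40.

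Genes that BMP is known to induce were higher with A83-01. Of 12 such genes, 10 were higher with A83-01 than with DMH-1, against 11.9% of all genes, and their median difference was +1.86 against -0.0047 over all genes. Atoh8, a transcription factor of the atonal family (chr6:72183161-72212561 on GRCm39, minus strand), stood at 181, 164 and 180 CPM with A83-01 and at 15.3, 17.3 and 16.9 CPM with DMH-1, with control cells between at 28.1, 26.5 and 22.3 CPM. All A83-01 libraries lay far above the rest, and the difference was 3.40 ± 0.10 (adjusted p = 2.44e-12). Id4, which codes for an inhibitor of basic helix-loop-helix factors (chr13:48414704-48419502 on GRCm39, plus strand), stood at 143, 140 and 146 CPM with A83-01 and 18.6, 14.9 and 16.1 with DMH-1, and control cells overlapped DMH-1 at 18.8, 17.2 and 18.8. Its difference was 3.11 ± 0.11 (adjusted p = 1.2e-11), and 2 genes without a protein name overlap it on the other strand.

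The other Id genes moved the same way with smaller differences. Id1 stood at 73.3, 45.6 and 59.5 CPM with A83-01 and at 15.2, 13.7 and 17.1 with DMH-1 (1.96 ± 0.26, adjusted p = 2.22e-05). Id2 differed by 1.92 ± 0.17 and Id3 by 1.25 ± 0.21. The inhibitory Smad6, a feedback inhibitor of BMP receptors, stood at 99.9, 98.1 and 104 CPM against 33.4, 28.3 and 24.8 (1.80 ± 0.11, adjusted p = 3.69e-09). Smad9, a receptor-activated Smad of the BMP branch, rose from 1.55, 1.61 and 1.96 CPM with DMH-1 to 11.0, 12.7 and 12.7 with A83-01 (2.84 ± 0.19). Hey1, a transcriptional repressor that BMP and Notch both induce, differed by 2.62 ± 0.27, Tmem100 by 1.12 ± 0.36 and Msx2 by 0.82 ± 0.19. Msx1, a homeobox factor, did not pass the test (-0.09, 95% interval -0.44 to 0.27), and neither did Bambi, a pseudoreceptor (0.61, 95% interval 0.06 to 1.16).

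Set against control cells, the difference lay mostly on the A83-01 side. With A83-01, 10 of the 12 BMP response genes were above control (16.4% of all genes were), with a median of +1.63. With DMH-1, 2 of the 12 were below control (3.79% of all genes were) and 1 above (5.96%), with a median of -0.17. Those below were Atoh8, at -0.64, and Smad9, at -0.67, and the gene above was Msx1, at 0.84. These comparisons share the control libraries, so they are given side by side only.

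Promoters were read for the BMP response genes because they moved together. The window from 250 bases before to 50 bases after the start site was held for 8 of the 12, and it was searched on both strands for GGCGCC, a GC-rich motif that BMP Smads are known to bind and that reads the same on both strands. The motif was in 3 of 8 windows (37.5%), those of Id2, Id4 and Smad9, and in 11.9% of all 32851 windows. The bases before the start site are shown for the pair with the smallest p, with the motif in capitals, 5′ to 3′ on the strand of the gene, from RefSeq on GRCm38.p6 (a build other than that of the gene positions above). Id4 holds the motif with its 5′ base 148 bases before the start site, and the Atoh8 window holds no match, which says only that these letters are not there.

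Atoh8, GRCm38.p6 chr6:72235578-72235827, minus strand: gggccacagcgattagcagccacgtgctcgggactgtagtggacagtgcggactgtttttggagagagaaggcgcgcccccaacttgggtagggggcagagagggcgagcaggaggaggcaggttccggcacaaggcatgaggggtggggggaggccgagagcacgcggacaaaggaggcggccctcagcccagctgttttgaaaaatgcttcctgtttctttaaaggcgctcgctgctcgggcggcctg

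Id4, GRCm38.p6 chr13:48260866-48261115, plus strand: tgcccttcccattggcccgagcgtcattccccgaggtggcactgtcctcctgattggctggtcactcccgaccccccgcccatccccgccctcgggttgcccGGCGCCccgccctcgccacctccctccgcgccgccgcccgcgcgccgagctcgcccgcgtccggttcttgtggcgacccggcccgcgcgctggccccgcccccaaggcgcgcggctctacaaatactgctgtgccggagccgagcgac

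Genes that TGFb is known to induce mostly differed in the opposite direction. Of 16, 11 were lower with A83-01 than with DMH-1 (13.4% of all genes were) and 3 were higher, with a median difference of -1.46. Against control, 13 of the 16 were lower with A83-01 (16.2% of all genes were), with a median of -2.03, and 10 were lower with DMH-1 (3.79%), with a median of -0.605. Pmepa1, a feedback inhibitor of TGFb signaling, stood at 105, 98.7 and 108 CPM with A83-01 and at 465, 473 and 412 with DMH-1 (-2.12 ± 0.08, adjusted p = 2.23e-11), and control cells lay between at 364, 363 and 355. Bhlhe40, a helix-loop-helix repressor, stood at 16.2, 16.1 and 16.2 CPM against 72.7, 71.8 and 77.4 (-2.19 ± 0.09, adjusted p = 3.33e-11). Skil, a Smad corepressor, stood at 7.59, 6.76 and 7.93 CPM against 29.4, 30.2 and 25.9 (-1.94 ± 0.15). In each of these genes the groups were several-fold apart and the replicates close together.

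Secreted products of the same list followed. Tgfbi, a matrix adhesion protein, differed by -2.31 ± 0.12, Cthrc1, a secreted protein of activated fibroblasts, by -2.45 ± 0.19, Ccn2, or connective tissue growth factor, by -1.69 ± 0.11, and Angptl4, an inhibitor of lipoprotein lipase, by -2.10 ± 0.13. Postn, the matricellular protein periostin, stood at 502, 670 and 554 CPM with A83-01 and 2769, 2569 and 2798 with DMH-1, and the DMH-1 libraries lay within or just below the control range of 2606 to 3314.

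In 5 of the TGFb response genes that were higher or not called, all DMH-1 libraries lay below the control range. Ltbp2, a microfibril protein of the latent TGFb binding protein family, was below control with both (-0.94 and -1.31), and the treatments did not pass the test between them (0.37, 95% interval 0.03 to 0.71). Il11, a cytokine, read 1.45 to 3.39 CPM with A83-01 and 1.88 to 2.85 with DMH-1, ranges that overlapped (-0.06, 95% interval -0.74 to 0.63). Comp, the cartilage oligomeric matrix protein, was higher with A83-01 (81.7, 72.9 and 75.2 CPM) than with DMH-1 (18.8, 11.2 and 21.0), with control cells between at 37.0 to 43.7. Smad7, the inhibitory Smad of both branches, was higher with A83-01 by 0.82 ± 0.09, and its DMH-1 libraries were the ones below control, by -0.60. Tgfb1i1, a focal adhesion protein, was higher by 0.52 ± 0.07.

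**Figure D2:**
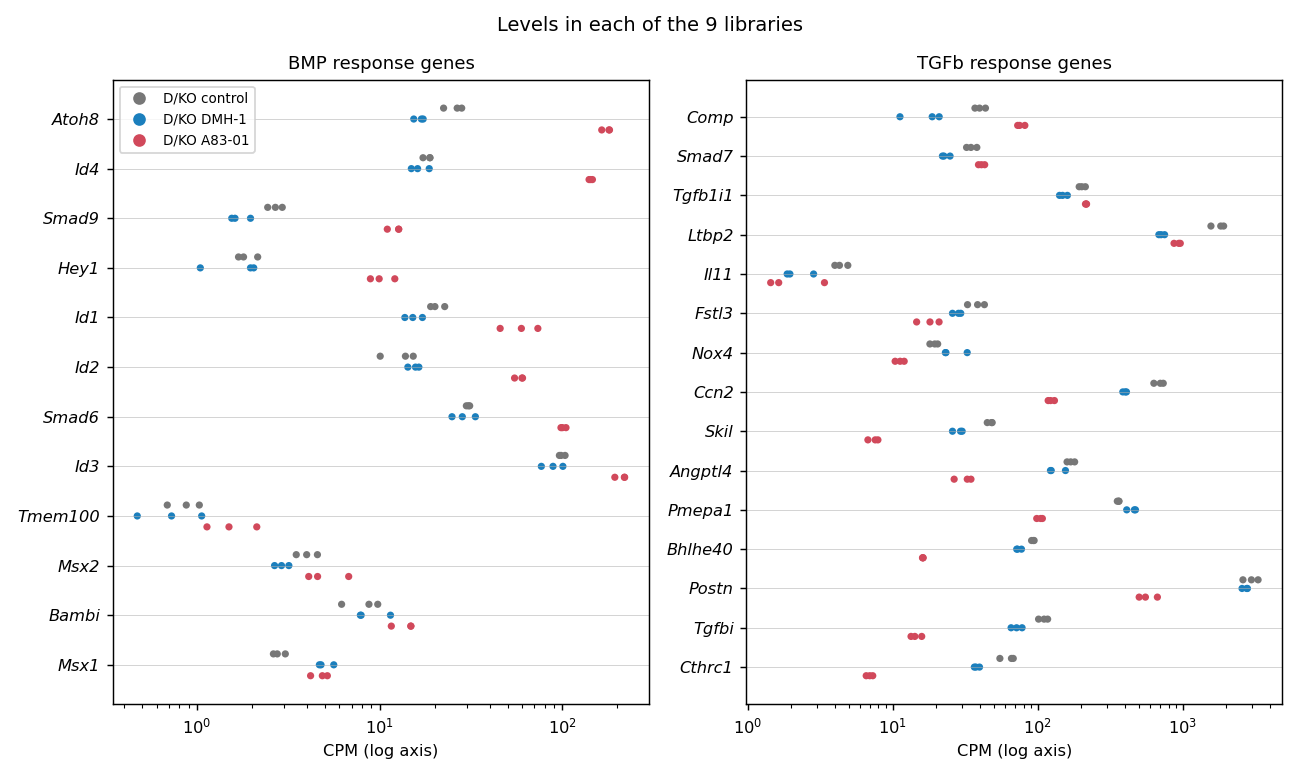
CPM on a log axis for BMP response genes (left) and TGFb response genes (right), with a point for each of the 3 control, 3 DMH-1 and 3 A83-01 libraries. The A83-01 libraries lie above the other groups in Atoh8 and Id4 and below them in Pmepa1 and Bhlhe40, while both treatments lie below control in Ltbp2.

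Among 13 receptor genes tested, 6 were lower (13.4% of all genes were) and 1 higher (11.9%) with A83-01. Tgfbr1, which codes for ALK5, stood at 34.9, 37.6 and 34.3 CPM with A83-01 and 75.7, 71.5 and 58.8 with DMH-1 (-0.95 ± 0.15, adjusted p = 0.000202), and DMH-1 cells were near the control level of 68.5 to 75.8. Acvr1, which codes for ALK2, was lower by 0.53 on the log2 scale (-0.53 ± 0.07), and Bmpr1b, or ALK6, by -1.85 ± 0.38 from low levels. The gene called higher was Acvr2b, a type II activin receptor, which went from 0.477 to 1.14 CPM with DMH-1 to 2.62 to 2.81 with A83-01. Of 12 Smads and corepressors, 3 were higher (Smad6, Smad7 and Smad9) and 2 lower (Skil and Smad1, at -0.40 ± 0.08), the latter a share near the 13.4% of all genes.

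Several secreted antagonists of BMP were higher with A83-01. Of 12 BMP and activin antagonists, 6 were higher with A83-01 (11.9% of all genes were) and 2 lower (13.4%), with a median of +0.29. That median became +0.155 with only the 6 libraries compared and +0.177 with at least 10 counts in every library. Grem1, or gremlin, stood at 324, 337 and 336 CPM with A83-01 and 56.0, 76.1 and 68.6 with DMH-1, and control cells lay between at 112 to 133, so that the treatments moved it apart from control in opposite directions (1.43 and -0.88). Nog, or noggin, stood at 41.0, 40.1 and 50.0 CPM against 12.7, 8.60 and 10.3 (2.05 ± 0.18). Chrdl1, a chordin-like antagonist, differed by 2.49 ± 0.18 and Fst, follistatin, by 2.08 ± 0.13, while Bmper, another BMP-binding protein, was lower by -1.45 ± 0.08.

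Of 13 ligands tested, 6 were higher and 4 lower with A83-01 than with DMH-1, beside 11.9% and 13.4% of all genes. Against control, 8 were higher with A83-01 (16.4% of all genes were) and 7 with DMH-1 (5.96%), and 1 was lower in each comparison. Bmp3 stood at 7.24, 4.10 and 6.04 CPM with DMH-1 but at 1.25, 1.64 and 1.37 with A83-01 and 0.894 to 1.31 in control cells (-2.02 ± 0.33). Gdf6 stood at 13.7, 11.7 and 10.4 CPM with DMH-1 and 3.15 to 3.60 with A83-01 (-1.83 ± 0.24), and Gdf10 differed by -1.28 ± 0.18. In these BMP-family ligands all DMH-1 libraries stood above the control range, with the A83-01 libraries near it. Bmp6 rose from 5.68 to 8.61 CPM in control cells to 23.8 to 26.3 with A83-01 and 24.5 to 29.3 with DMH-1, and the test between the treatments was not passed (-0.12, 95% interval -0.40 to 0.17). Tgfb1 was lower with A83-01 (-1.01 ± 0.10), whereas Tgfb3 (0.66 ± 0.09) and the activin subunit genes Inhba (1.11 ± 0.18) and Inhbb (1.34 ± 0.09) were higher. Inhbb stood at 1033, 997 and 1011 CPM with A83-01 against 434, 370 and 394 with DMH-1.

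Contractile genes differed in the direction opposite to the TGFb response list. Of 15 tested, 10 were higher with A83-01 than with DMH-1 (11.9% of all genes were) and 2 were lower, a share near the 13.4% of all genes, with a median of +0.79. Acta2, the smooth muscle actin of myofibroblasts, stood at 950, 810 and 870 CPM with A83-01, at 485, 486 and 584 with DMH-1 and at 1413, 1206 and 1169 in control cells. The groups did not overlap, and DMH-1 was the lowest of the 3 (0.76 ± 0.14 between treatments, adjusted p = 0.000845). Cnn1, or calponin, stood at 90.3, 83.4 and 84.3 CPM against 25.6, 34.3 and 42.5, with control at 117 to 142 (1.34 ± 0.19). Lmod1, a leiomodin that nucleates actin filaments, stood at 78.6, 82.3 and 83.2 CPM against 13.4, 13.7 and 13.7, and here control cells, at 39.5 to 41.2, lay between (2.58 ± 0.12, adjusted p = 1.56e-10). Myl9 (1.13 ± 0.15) and Mylk (1.18 ± 0.15), a myosin light chain and its kinase, and Actg2 (0.80 ± 0.12) were also higher with A83-01. Set against control, 10 of the 15 fell with DMH-1 (3.79% of all genes did), with a median of -0.83, and with A83-01 5 fell (16.2%) and 2 rose (16.4%), with a median of -0.08. Itga11, a collagen-binding integrin in the same list, went the other way, at 19.6 to 29.4 CPM with A83-01 and 182 to 221 with DMH-1 (-2.96 ± 0.33).

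In each matrix list more members were lower than higher with A83-01. Of 24 collagen chains, 12 were lower (13.4% of all genes were) and 3 higher, a share near the 11.9% of all genes, with a median of -0.41. Col1a1, the main chain of fibrillar collagen, stood at 19280, 18380 and 18150 CPM with A83-01 and 40800, 31450 and 28910 with DMH-1, where DMH-1 replicate 1 alone reached the control range of 38980 to 42290 (-0.86 ± 0.13, adjusted p = 9.92e-05). Col3a1 differed by -1.29 ± 0.13, Col5a1 by -1.21 ± 0.17 and Col11a1 by -2.27 ± 0.20. Col10a1, a network-forming collagen of hypertrophic cartilage that overlaps Nt5dc1 on the other strand, and Col23a1, a transmembrane collagen, were among the 3 higher (2.97 ± 0.29 and 2.46 ± 0.24).

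Enzymes that modify collagen and proteins of elastic fibres were lower in 14 of 25 (13.4% of all genes were) and higher in 3, again a share near the 11.9% of all genes. Plod1, a collagen lysyl hydroxylase, stood at 192, 212 and 198 CPM with A83-01 and 1007, 1092 and 1023 with DMH-1, the latter near the control range of 994 to 1151 (-2.38 ± 0.10, adjusted p = 9e-11). Fbln2, or fibulin 2, stood at 715, 898 and 832 CPM against 4292, 4138 and 3873. The lysyl oxidases Loxl2 (-0.98 ± 0.12), Loxl3 (-0.81 ± 0.10) and Lox (-0.46 ± 0.12) were lower too. Ltbp1, a carrier of latent TGFb, and Eln, elastin, were higher with A83-01 (1.78 ± 0.15 and 1.15 ± 0.15). Eln stood at 57.6 to 73.0 CPM with A83-01, at 22.6 to 38.6 with DMH-1 and at 11.7 to 13.9 in control cells, so it was above control with both.

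The proteases held the most divergent matrix genes. Of 18 metalloproteinase and Timp genes, 8 were lower (13.4% of all genes were) and 2 higher, near the share of all genes. Mmp13, an interstitial collagenase, stood at 0.646, 1.48 and 0.703 CPM with A83-01 and at 122, 100 and 137 with DMH-1, where it was near the control range of 158 to 166 (-6.98 ± 0.25, adjusted p = 1.2e-11). Mmp3, or stromelysin, differed by -2.59 ± 0.18, and Mmp11 by -2.19 ± 0.10. Timp4, an inhibitor of these enzymes, was absent from the counts of control cells, stood at 0.0336 to 0.159 CPM with DMH-1 and at 2.46 to 3.00 with A83-01 (4.88 ± 0.53), and Timp2 was higher by 0.66 ± 0.11. Among 17 matricellular genes, 9 were lower, led by the phosphoprotein Spp1 (37.9 to 41.6 CPM against 319 to 444, and 840 to 1046 in control cells), and 6 were higher, among them Ccn3 (1.67 ± 0.12) and Ccn1 (1.13 ± 0.08). Of 14 proteoglycan genes, 5 were lower and 3 higher. Aspn, asporin, which overlaps Cenpp on the other strand, was the most significant (-3.15 ± 0.13), and Fmod, fibromodulin, rose by 1.56 ± 0.12. Of 26 integrins and laminins, 8 were lower and 6 higher. For each list in this paragraph the shares of all genes were 13.4% lower and 11.9% higher.

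The plot of gene lists sets these groups beside the remaining ones.

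**Figure D3:**
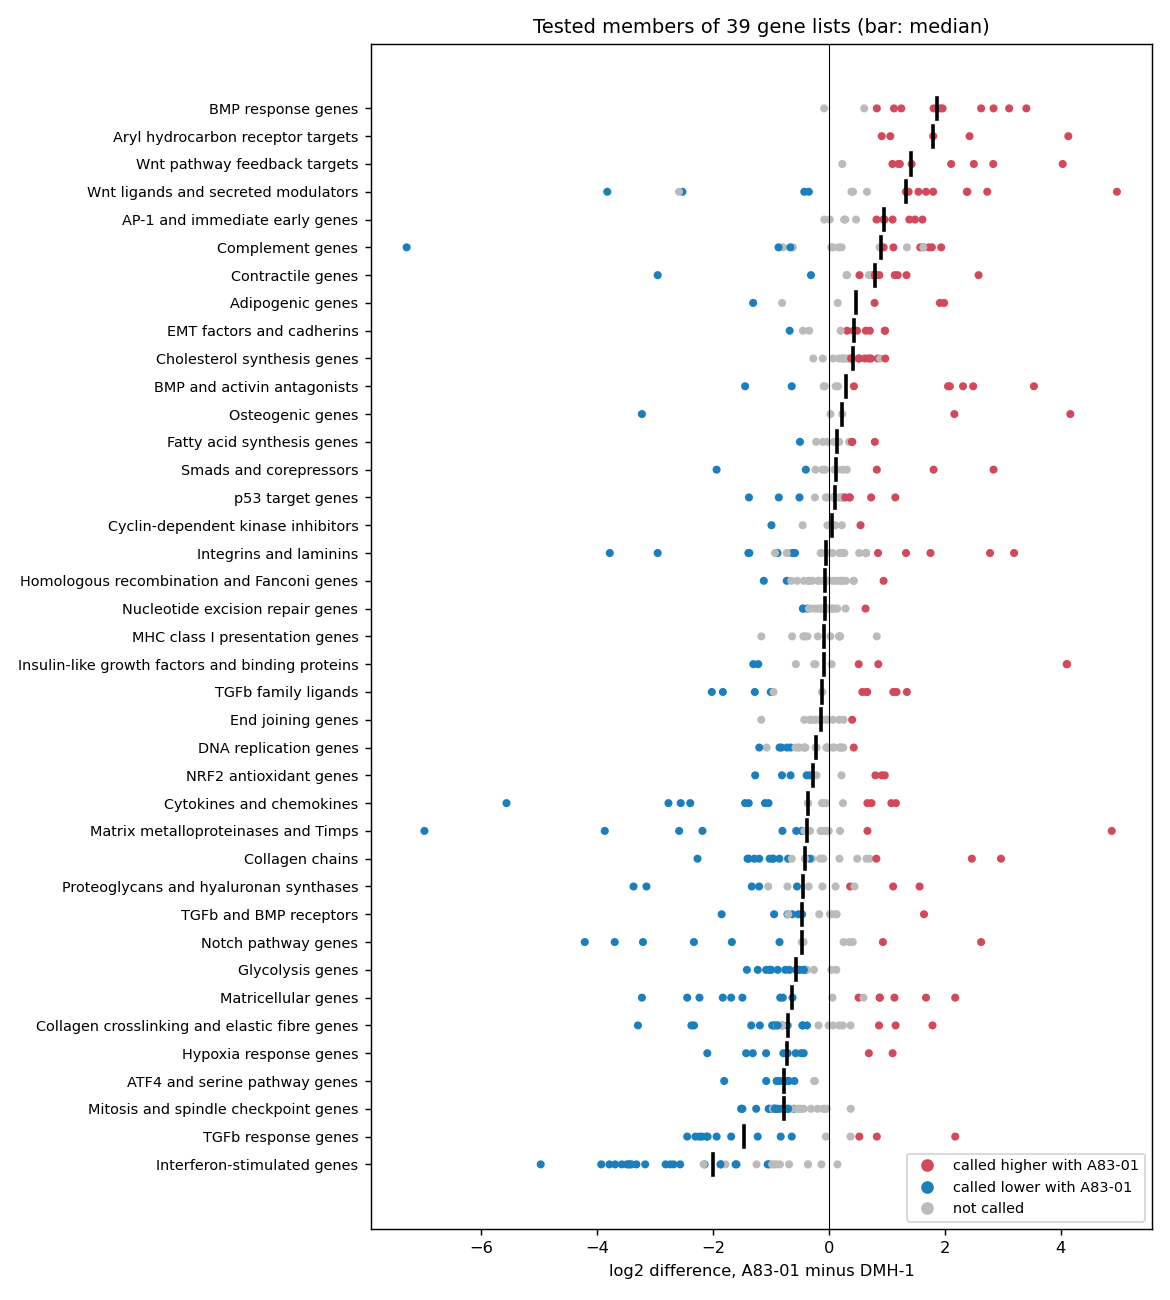
Each point is a tested member of 1 of 39 gene lists, with its log2 difference, A83-01 minus DMH-1, on the x axis and a bar at the list median. The BMP response list has a median of +1.86, the TGFb response list of -1.46 and the interferon list of -2.01, the last resting on DMH-1 replicate 2, and the point at -7.29 is C7, which was at 0 with A83-01.

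Glycolysis and hypoxia genes were lower with A83-01. Of 19 glycolysis genes 15 were lower (13.4% of all genes were), with a median of -0.57. Hk2, a hexokinase, stood at 19.2, 21.0 and 18.8 CPM with A83-01 and 57.0, 53.4 and 47.4 with DMH-1 (-1.42 ± 0.13, adjusted p = 5.26e-07). Pgk1 (-1.02 ± 0.13) and Pgam1 (-1.03 ± 0.07), enzymes of the lower pathway, were lower by similar amounts. DMH-1 cells were themselves below control in 8 of the 19 (3.79% of all genes were), with a median of -0.34, and A83-01 cells in 17 (16.2%), with a median of -0.80. All 12 hypoxia response genes were called, 10 lower and 2 higher, beside 13.4% and 11.9% of all genes. Ero1a, an oxidase of the endoplasmic reticulum, differed by -1.43 ± 0.10 and Vegfa by -0.58 ± 0.07, whereas Adm, adrenomedullin, stood at 615, 561 and 587 CPM with A83-01 and 235, 289 and 301 with DMH-1 (1.10 ± 0.12), and Ndrg1 rose by 0.69 ± 0.07. Genes of the ATF4 and serine pathway were lower in 9 of 11 (13.4% of all genes were). They were led by the pseudokinase Trib3 (42.6 to 53.2 CPM against 154 to 192, -1.81 ± 0.13) and the serine synthesis enzyme Psat1 (-1.08 ± 0.08). Of 22 cholesterol synthesis genes 9 were higher (11.9% of all genes were), among them the squalene epoxidase Sqle (0.62 ± 0.08). The other 13 were not called, and the median was +0.41. By DESeq2 14 were higher, beside 2122 of all 15164 genes.

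Mitotic genes were lower with A83-01 than with DMH-1. Of 32 spindle and checkpoint genes, 19 were lower (13.4% of all genes were) and the other 13 were not called, with a median of -0.78. Nuf2, a kinetochore protein, stood at 1.13, 1.08 and 1.01 CPM with A83-01 and 2.77, 2.75 and 3.81 with DMH-1, below control cells at 3.93 to 5.03 (-1.52 ± 0.23). Plk1, a mitotic kinase, differed by -1.50 ± 0.28, Ccna2, cyclin A, which overlaps Exosc9 on the other strand, by -0.94 ± 0.20 and Top2a, a topoisomerase, by -0.73 ± 0.20. Mki67, the proliferation antigen, spread widely, at 2.62 to 6.14 CPM with A83-01 and 4.48 to 7.39 with DMH-1, and did not pass the test (-0.55, 95% interval -1.44 to 0.34). Against control, 29 of the 32 fell with A83-01 (median -1.56) and 11 fell with DMH-1 (median -0.65), where 16.2% and 3.79% of all genes fell. Of 25 DNA replication genes 5 were lower and 1 higher, beside 13.4% and 11.9% of all genes. The cell cycle inhibitor Cdkn1a was above control with both inhibitors (0.43 and 0.33) and did not pass the test between them (0.11, 95% interval -0.04 to 0.25), while Cdkn2b, an inhibitor that TGFb induces in epithelium, was higher with A83-01 (0.54 ± 0.15) and Cdkn2c lower (-0.99 ± 0.16). Of 19 p53 targets 6 were higher, with the antiproliferative gene Btg2 the largest (180 to 198 CPM against 71.5 to 93.0, 1.14 ± 0.10), and 3 were lower, led by the growth arrest gene Gadd45a (-1.38 ± 0.20), beside 11.9% and 13.4% of all genes. Of 20 nucleotide excision repair genes 1 was higher and 3 lower, of 24 homologous recombination and Fanconi genes 1 was higher and 2 lower, and of 15 end joining genes 1 was higher, where 25.4% of all genes were called.

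Wnt feedback genes were a group that rose with A83-01 in nearly every member. Of 9 tested, 8 were higher (11.9% of all genes were), with a median of +1.42. Znrf3, a ligase that removes Wnt receptors, did not pass the test (0.23, 95% interval -0.28 to 0.73). Nkd1, an inhibitor of Dishevelled, stood at 17.6, 15.3 and 18.5 CPM with A83-01 and at 2.83, 2.25 and 2.06 with DMH-1, where it overlapped control cells at 2.23 to 2.67 (2.83 ± 0.14, adjusted p = 2.98e-10). Axin2, a scaffold of the destruction complex, rose from 0.231 to 0.530 CPM to 1.90 to 2.11 (2.50 ± 0.44), and Lef1, a Wnt transcription factor, from 3.13 to 3.66 CPM to 8.20 to 9.86 (1.42 ± 0.14). Lgr5, a receptor for R-spondins, was above control with both inhibitors, at 50.3 to 58.1 CPM with A83-01, 22.1 to 27.6 with DMH-1 and 7.42 to 8.82 in control cells. Of 17 Wnt ligands and secreted modulators, 9 were higher and 4 lower, beside 11.9% and 13.4% of all genes. Rspo2, an R-spondin that potentiates Wnt signaling, stood at 187, 200 and 198 CPM against 28.5, 32.0 and 27.6 (2.73 ± 0.10, adjusted p = 1.2e-11). Wnt2 (2.39 ± 0.15) and the secreted antagonists Sfrp2 (2.38 ± 0.12) and Sfrp1 (1.80 ± 0.17) rose with it, and Wnt9a fell (-2.53 ± 0.20).

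The 5 tested targets of the aryl hydrocarbon receptor were all higher with A83-01 (11.9% of all genes were). Cyp1a1, the xenobiotic-metabolizing enzyme that defines this response, stood at 8.16, 5.80 and 6.64 CPM with A83-01, at 0.494, 0.369 and 0.265 with DMH-1 and at 0.410 to 0.811 in control cells (4.13 ± 0.27, adjusted p = 4.34e-08). Ahrr, a repressor of the receptor, stood at 82.9, 96.9 and 83 CPM against 17.0, 17.7 and 14.2 (2.42 ± 0.22), and Tiparp, an ADP-ribosyltransferase, at 77.4 to 94.9 CPM against 22.8 to 26.1 (1.80 ± 0.10). In Cyp1b1 the A83-01 libraries (27.9 to 32.6 CPM) were near control (23.8 to 27.4) and DMH-1 libraries (12.7 to 16) were below it. Nqo1 differed by 0.91 ± 0.13. Of 10 NRF2 antioxidant genes, which include Nqo1, 3 were higher and 5 lower, beside 11.9% and 13.4% of all genes.

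Immediate early genes were higher with A83-01 in 8 of 13 members (11.9% of all genes were), with a median of +0.94. Egr1, a growth factor-induced zinc finger factor, stood at 604, 677 and 527 CPM with A83-01 and 188, 201 and 203 with DMH-1, and control cells lay below both at 113 to 128 (1.61 ± 0.18, adjusted p = 3.27e-06). Fosb (1.48 ± 0.25), Fos (0.94 ± 0.12) and Junb (0.94 ± 0.14) followed. Of 11 mesenchymal transition factors and cadherins, 7 were higher (11.9% of all genes were). Among them were Snai2 (0.96 ± 0.09), Zeb2 (0.97 ± 0.22) and Twist1 (0.70 ± 0.11), while Cdh11 fell (-0.68 ± 0.13). Among 10 insulin-like growth factor genes, 4 were higher and 2 lower, beside 11.9% and 13.4% of all genes. Igfbp2, a binding protein, stood at 825, 562 and 709 CPM with A83-01 and 39, 37 and 45.6 with DMH-1, near control cells at 43.8 to 55.5 (4.11 ± 0.24, adjusted p = 1.93e-09), and Igfbp3 went the other way, with DMH-1 alone above control (486 to 544 CPM against 1140 to 1355, control 527 to 563). Of 6 adipogenic genes tested 3 were higher and 1 lower, beside 11.9% and 13.4% of all genes. Pparg, the master regulator of fat cells, stood at 11.9, 7.72 and 11.1 CPM against 2.04, 3.46 and 2.65 (1.91 ± 0.23), and Lpl, lipoprotein lipase, was above control with both (1.68 and 1.53) without passing the test between them (0.15, 95% interval -0.08 to 0.38).

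Of 13 Notch pathway genes 6 were lower with A83-01, 2 higher and 5 not called, beside 13.4% lower and 11.9% higher over all genes. Their median was -0.47, and it became +0.32 over the members with at least 10 counts in every library and to -0.895 without A83-01 replicate 3. Dll4, a Notch ligand of arterial endothelium, stood at 1.01, 1.08 and 0.547 CPM with A83-01, at 17.0, 17.0 and 15.2 with DMH-1 and at 12.7 to 16.2 in control cells (-4.22 ± 0.29, adjusted p = 1.84e-08). Notch4, a receptor of endothelium, stood at 5.05, 5.48 and 4.33 CPM against 49.2, 45.1 and 43.5 (-3.21 ± 0.17), and the targets Heyl (-3.70 ± 0.42) and Nrarp (-2.33 ± 0.31) fell with it. Notch3 rose (0.93 ± 0.31), as did Hey1, counted above.

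Endothelial markers moved beside them. Of 6, 4 were lower and 1 higher, beside 13.4% and 11.9% of all genes. Their summed level was 150 to 190 CPM with A83-01, 335 to 433 with DMH-1 and 305 to 349 in control cells. Cdh5, the cadherin of endothelial junctions, stood at 30.1, 51.0 and 34.1 CPM with A83-01 and 132, 187 and 145 with DMH-1 (-2.01 ± 0.31), Kdr, a VEGF receptor, at 5.31 to 8.00 CPM against 26.9 to 29.3 and Pecam1 at 37.6 to 54.7 against 116 to 133. Tek, the angiopoietin receptor, was higher with A83-01 (0.51 ± 0.12), and Vwf, the defining von Willebrand factor, was under 1 CPM in all 9 libraries. In bulk samples fewer cells of a type and less RNA per cell cannot be told apart, and the part of endothelial RNA in the Notch difference was not tested.

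The remaining marker lists were low or mixed. Mural markers summed to 127 to 169 CPM with A83-01 and 131 to 159 with DMH-1, with 3 of 6 lower and 2 higher. Abcc9, a potassium channel subunit of pericytes, was at 0 in all A83-01 libraries and at 1.27 to 1.54 CPM with DMH-1, so it was at least 35.7-fold lower against a floor of 3 counts over the group. Schwann and melanocyte markers summed to 46.7 to 57.7 CPM with A83-01, 26.3 to 28.8 with DMH-1 and 17.3 to 20.4 in control cells, and 3 of 5 were higher, among them the transcription factor Sox10 (0.65 ± 0.18). Leukocyte markers (13.8 to 19.7 CPM against 7.83 to 10.2) and keratinocyte markers (13.0 to 14.6 against 5.77 to 6.22) were a small part of the counts in all libraries. Fibroblast markers, which define the labelled cells, summed to 38200 to 40300 CPM with A83-01, 53600 to 68600 with DMH-1 and 67800 to 72400 in control cells, sums in which Col1a1 alone made up much of the level and of the difference. By gene, 6 of 12 were lower and 3 higher, with a median of -0.41. For each list in this paragraph the shares of all genes were 13.4% lower and 11.9% higher. Of the fibroblast markers Pi16, of adventitial fibroblasts, differed most, at 15.5 to 24.1 CPM with A83-01 against 67.7 to 110 with DMH-1, with A83-01 near control.

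**Figure D4:**
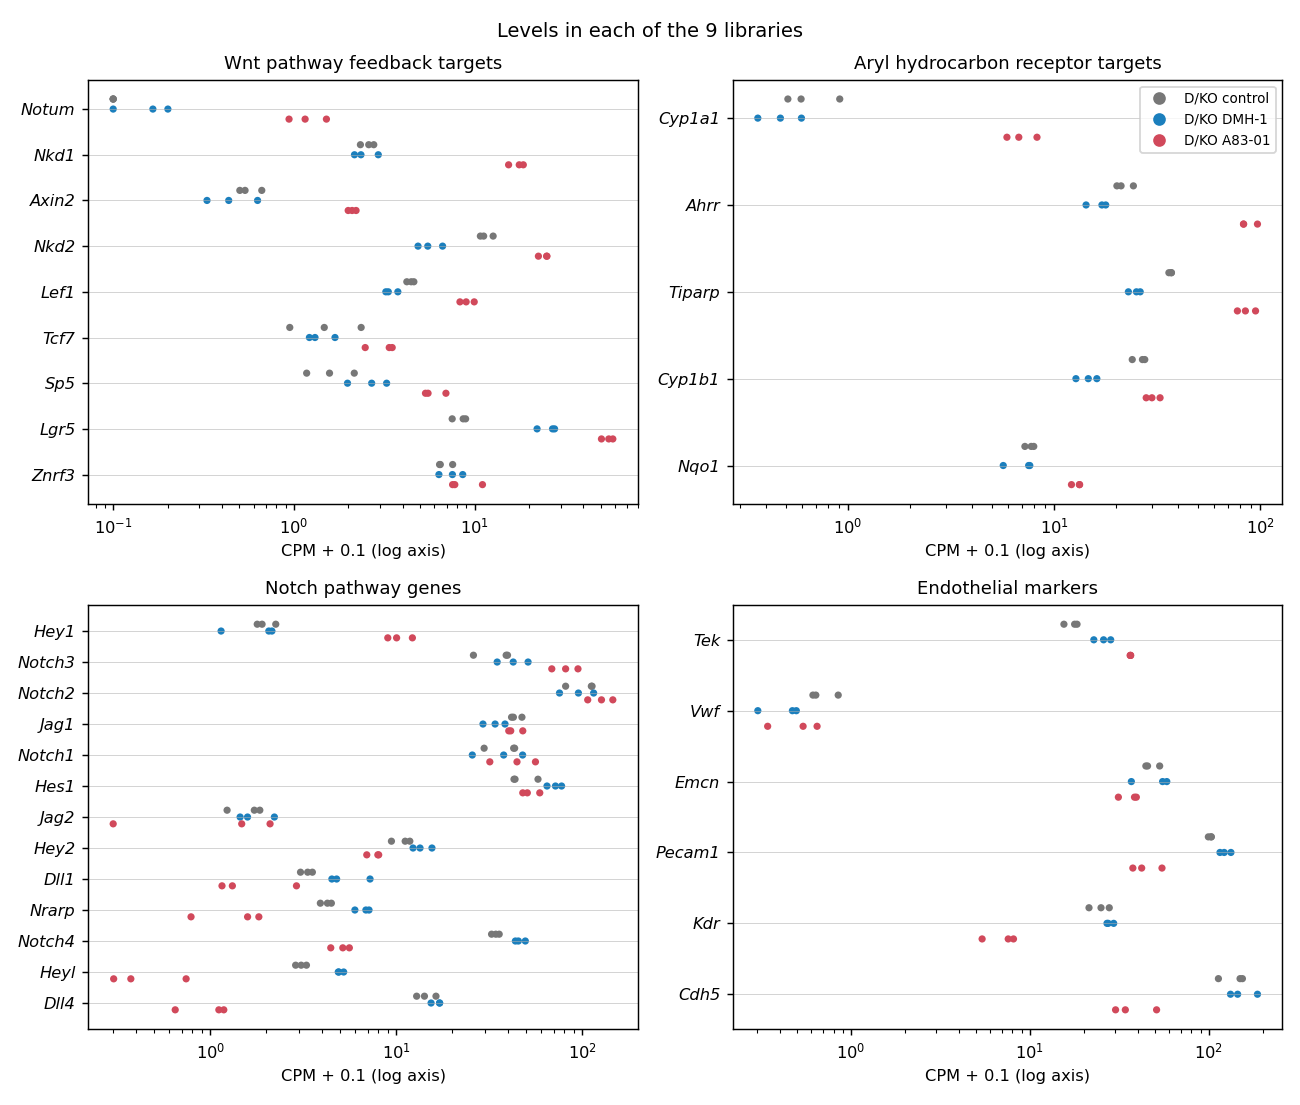
CPM plus 0.1 on a log axis for 4 gene lists, with a point for each of the 3 control, 3 DMH-1 and 3 A83-01 libraries. The A83-01 libraries lie above the rest in Nkd1 and Cyp1a1 and below them in Dll4, Notch4 and Cdh5.

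Of 20 complement genes 7 were higher (11.9% of all genes were) and 3 lower, near the 13.4% of all genes, with a median of +0.89, which became +0.53 without DMH-1 replicate 1. C1ra and C1s1, the proteases of the classical pathway, stood at 320 to 341 and 269 to 307 CPM with A83-01 and at 87.7 to 125 and 74.4 to 98.5 with DMH-1 (1.63 ± 0.13 and 1.72 ± 0.15). C3, the central component, rose by 1.94 ± 0.32. C7, of the terminal complex, was at 0 in all A83-01 libraries and was at least 20.7-fold lower than with DMH-1, against the same floor. Of 18 cytokines and chemokines 8 were lower and 4 higher, beside 13.4% and 11.9% of all genes. Il33, an alarmin, stood at 0.283, 0.0800 and 0.0391 CPM against 5.86, 7.26 and 6.51 (-5.57 ± 0.35), and Ccl11, eotaxin, at 5.82 to 9.84 CPM against 29.3 to 50.8, the latter above control at 13.1 to 15.1. Cxcl12, a stromal chemokine, was higher with A83-01 (739, 825 and 805 CPM against 364, 353 and 408, 1.07 ± 0.09), and its receptor gene Cxcr4 showed the largest fall of the genes ranked by size, at 0.162, 0 and 0.0781 CPM against 12, 16.6 and 14.2 (-7.40 ± 0.37, adjusted p = 3.63e-10).

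In interferon-stimulated genes the difference rested on a single library. Of 34 tested, 22 were called lower with A83-01 (13.4% of all genes were), with a median of -2.01, which became 0.03 without DMH-1 replicate 2. DMH-1 replicate 2 was the highest of the 9 libraries in all 34, with a median ratio of 10.9 over the mean of DMH-1 replicates 1 and 3 (from 1.45 to 112). Isg15, a ubiquitin-like modifier, stood at 5.6, 190 and 6.2 CPM with DMH-1 and at 7.67, 5.12 and 2.85 with A83-01, so that replicate 2 alone was high. Ifi44 stood at 0.626, 68.0 and 0.583 CPM with DMH-1 and at 0.808, 1.12 and 0.273 with A83-01. Without DMH-1 replicate 2, 1 gene was still called lower, the GTPase Irgm1 (-0.38, adjusted p = 0.0287), and 3 were called higher, namely the RNA sensor Ifih1 (0.69, adjusted p = 0.00199), Cmpk2 (1.17, adjusted p = 0.0119) and the GTPase Gbp2 (0.76, adjusted p = 0.000218). Over all genes, 57 were more than 4-fold above the mean of the other DMH-1 replicates in that library, of which 27 were on the list. Of the interferon ligand genes, Ifnb1 and Ifng were at 0 in all 9 libraries, and Ifnz had 1 to 3 counts in control cells, 3, 5 and 3 with DMH-1 and 7, 6 and 6 with A83-01.

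The other libraries also differed from control in these genes. All 3 A83-01 libraries lay above all control libraries in 19 of the 34 (24.8% of all genes), and DMH-1 replicates 1 and 3 did in 26 (22.3% of all genes). Ifit3, an antiviral effector, stood at 21.5, 22.6 and 15.9 CPM with A83-01, at 18.5, 229 and 18.5 with DMH-1 and at 2.15, 2.15 and 2.25 in control cells. Ifit2 stood at 39, 44.2 and 42.8 CPM with A83-01 and 33.2, 47.8 and 32.9 with DMH-1, against 13.5 to 15.5 in control cells, and did not pass the test between the treatments (0.14, 95% interval -0.18 to 0.46).

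**Figure D5:**
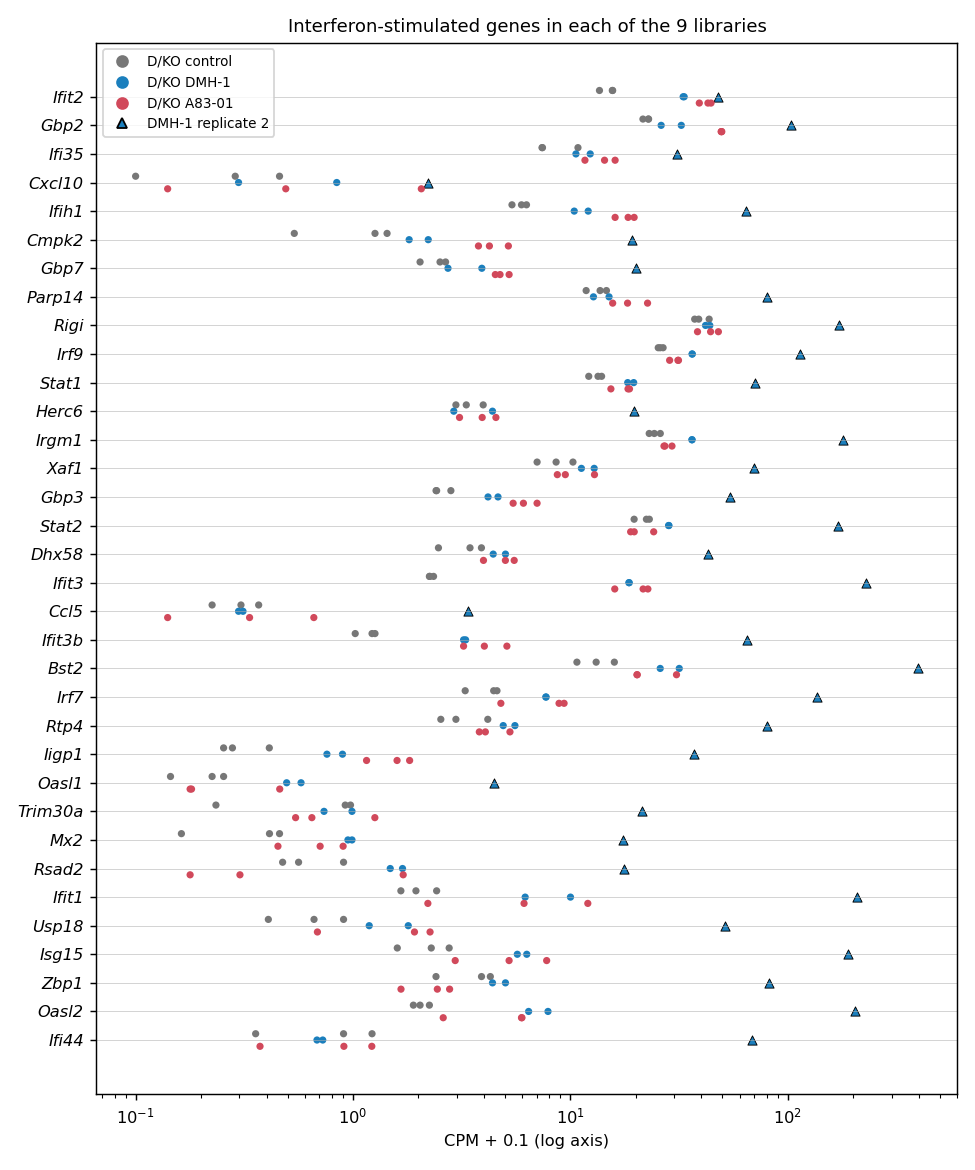
CPM plus 0.1 on a log axis for 34 interferon-stimulated genes, with a point for each of the 9 libraries and a triangle for DMH-1 replicate 2. The triangle is the rightmost point in all 34 genes, and the other DMH-1 libraries lie near the A83-01 libraries.

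Promoter sequence was not used to choose these members. The motif of GAAA, any 2 bases and GAAA, the core of the element that interferon-activated factors bind, searched on both strands, was in 15 of 28 promoter windows of 24 members (53.6%) and in 3.44% of all windows. Stat2 and Irgm1 had the smallest p among members whose window held it, and they are shown for that reason, with the motif in capitals, in the layout used above. That order of p includes DMH-1 replicate 2, without which Stat2 was not called (adjusted p = 0.0723). In Stat2, a transducer of type I interferon signaling, the motif lies on the other strand, and in Irgm1 a pair of matches overlap, with their 5′ bases 30 and 24 bases before the start site. The windows of Oasl2 and Ifi44, which have smaller p, held no match.

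Stat2, GRCm38.p6 chr10:128270248-128270497, plus strand: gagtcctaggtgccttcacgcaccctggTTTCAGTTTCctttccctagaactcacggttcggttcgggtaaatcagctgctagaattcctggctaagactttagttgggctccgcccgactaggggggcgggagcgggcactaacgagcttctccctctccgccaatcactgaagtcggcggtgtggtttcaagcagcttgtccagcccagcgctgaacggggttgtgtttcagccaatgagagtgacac

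Irgm1, GRCm38.p6 chr11:48871421-48871670, minus strand: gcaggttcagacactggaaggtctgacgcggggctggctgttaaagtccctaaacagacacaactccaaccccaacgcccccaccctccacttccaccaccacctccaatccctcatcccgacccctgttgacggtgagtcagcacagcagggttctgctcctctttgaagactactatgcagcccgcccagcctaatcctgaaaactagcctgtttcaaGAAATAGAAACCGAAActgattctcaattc

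Across all genes, differences were ranked by size among called genes at 5 CPM or more in the higher group whose ranges did not overlap. Rab3b, a GTPase of regulated secretion, showed the largest rise, at 78.5, 65.0 and 78.6 CPM with A83-01 against 2.34, 2.45 and 3.60 with DMH-1 (4.75 ± 0.24, adjusted p = 5.47e-10), and control cells were at the DMH-1 level. Fgfr3, a growth factor receptor (4.49 ± 0.43), and Gpc3, the proteoglycan glypican 3 (16.7 to 19.1 CPM against 0.922 to 1.18, 4.15 ± 0.19), were also among the 12 largest rises. The homeobox factor Dlx3 (4.16 ± 0.28), the potassium channel Kcnk3 (4.07 ± 0.37), the calcitonin receptor partner Ramp1 (3.68 ± 0.31), and Gdpd2, Ccno and Snap91 (4.46, 3.84 and 3.72) belonged to the same group. Vegfd, a lymphatic growth factor, was among the smallest p, at 756, 730 and 776 CPM against 163, 185 and 191 (2.07 ± 0.08), as was Fgfr2 (3.14 ± 0.14), whose model overlaps Ctbp2 on the same strand so that its reads may be uncertain.

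Among the falls, Sertad4 (chr1:192526796-192538064 on GRCm39, minus strand) had the smallest p, at 11.2, 13.0 and 11.2 CPM with A83-01 against 120, 116 and 102 with DMH-1, and control cells were close to DMH-1 at 124 to 140 (-3.25 ± 0.10, adjusted p = 2.44e-12). Rflnb, a regulator of filamin (-2.40 ± 0.10), was likewise near control with DMH-1, and Bcat1, a branched-chain aminotransferase (-2.38 ± 0.08), was below control with both, by -0.50 with DMH-1 and -2.88 with A83-01. Agtr2, the angiotensin type 2 receptor, was among the 12 largest falls but in another order of groups, at 2.50, 3.44 and 2.15 CPM with A83-01, 55.5, 49.5 and 41.3 with DMH-1 and 3.08 to 4.55 in control cells, so that the difference of -4.18 ± 0.17 (adjusted p = 3.52e-11) came from a rise with DMH-1. Of the remaining large falls, the endothelial genes Gpihbp1 (-4.57 ± 0.49), F2rl3 (-4.33 ± 0.37) and Sox17 (-4.15 ± 0.30) stood beside Dll4, and the channel genes Kcne3 (-4.69 ± 0.35) and Kcnj15 (-4.25 ± 0.34) were below control with both inhibitors. Dapk2, a death-associated kinase, stood at 0, 0.160 and 0.117 CPM against 7.77, 7.83 and 9.16 (-6.39 ± 0.42). Ifi205, an interferon-inducible gene, differed by -4.85 ± 0.49 and was highest in DMH-1 replicate 2, at 10.9 CPM, with 3.36 and 6.78 CPM in the other DMH-1 libraries and 0.121 to 0.440 with A83-01.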

How the data were processed

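RNA from D/KO fibroblasts was sequenced as paired reads of 150 bp. Per the labels and the study's methods, the authors used FastQC, Trim Galore, HISAT2 and featureCounts on GRCm39 to make the deposited counts, which are raw counts per gene, beside gene length in bases. Versions, annotation release, strandedness and handling of multiply mapped reads are not given in the sources used here, so overlapping genes are read with that limit. Each table column used was matched to its sample by name.

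Library sizes were corrected with TMM factors (edgeR 4.0.16, R 4.3.3). The filterByExpr function (minimum count 10, total 15) kept 15164 genes over 18 libraries in 6 groups of 3, which shared 1 quasi-likelihood fit without covariates. The groups were D/KO cells with A83-01, DMH-1, Repsox, Vactosertib or no inhibitor, and WT control cells labelled with an older age. Tests were two-sided, with Benjamini-Hochberg adjustment within a contrast. The step was also run on counts simulated with the levels and spread of this fit. CPM are scaled by TMM, carry no length correction and are compared within a gene only.

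The gene lists and members were chosen with earlier results of these data known, and list counts are descriptions without a set test. Single genes are list members, the 12 largest differences per direction among called genes at 5 CPM or more with ranges that do not overlap, and the 6 smallest p per direction. The promoters of Stat2 and Irgm1 were chosen after the windows had been searched. A few genes of these lists are not reported here. Symbols come from GENCODE M39, which held 98.7% of the identifiers. Alternatives were DESeq2 1.42.0, its size factors, other filters, other sets of libraries and each library left out in turn. Between replicates the counts differed by more than sampling noise, so no library was a copy of another.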

Additional observations from a re-analysis of the deposited data

How the results depend on the processing

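The 1811 higher and 2034 lower genes ranged from 1513 (all 24 libraries) to 2122 (DESeq2) and from 1623 (at least 10 counts in every library) to 2208 (DESeq2) among alternatives that changed tool, filter, scaling or the libraries fitted, and from 1451 to 1516 and from 1562 to 1713 when a library was left out. A minimum difference of 1 on the log2 scale left 767 and 778. No paired analysis was possible because the libraries carry running numbers and the groups share no replicate number. Of 379 called genes named or listed, 298 kept their call in every alternative that gave a value. The BMP response genes called higher numbered 10 or 9 in each alternative, with 9 for instance without A83-01 replicate 1 or DMH-1 replicate 2.

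Requiring at least 10 counts in every library moved the medians of 13 lists, and those of TGFb family ligands (-0.118 to 0.599), Notch pathway genes (-0.471 to 0.322), mural markers (-0.641 to 0.126) and keratinocyte markers (0.248 to -0.497) changed sign. Among lists whose medians changed sign when a library was left out were MHC class I genes (-0.0855 to 0.35) and interferon-stimulated genes (-2.01 to 0.03), both without DMH-1 replicate 2.

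The calls of interferon-stimulated genes depended on a single library. The 22 called lower became 14 with DESeq2 and 14 with only the 6 libraries compared, and ran from 1 (without DMH-1 replicate 2) to 27 (without DMH-1 replicate 3) as single libraries were left out, with 10, 13 and 5 called without A83-01 replicates 1, 2 and 3. The number called higher ran from 0 to 3, the 3 without DMH-1 replicate 2. As single libraries were left out, the difference ran from -2.33 to 0.0397 for Dhx58, -5.54 to 0.27 for Ifi44, -2.63 to 0.111 for Ifit3, -3.08 to 0.343 for Ifit3b, -3.73 to 0.978 for Iigp1, -4.13 to 0.148 for Usp18, -1.32 to 1.17 for Cmpk2, -0.454 to 0.762 for Gbp2 and -1.08 to 0.689 for Ifih1, each upper value without DMH-1 replicate 2. Of genes not called, Il11 ran from -0.537 to 0.169, turning positive without A83-01 replicate 2 or 3 or DMH-1 replicate 2, and Msx1 from -0.155 to 0.0167, the latter without DMH-1 replicate 1.

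Depth was not tested as a limit. With 3 libraries per treatment and no label of separate mice or cultures, the spread between cell lines is unknown, and genes under 1 CPM rest on few counts.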
